A study of Mus musculus with 25 samples.

Results

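Loss of the p19 subunit of IL-23 and loss of the p35 subunit of IL-12 were compared directly in the distal colon of NEMOIEC-KO mice. The study sequenced 5 genotypes in 25 libraries, and this comparison uses 10 of the libraries: the 5 libraries labelled NEMOIEC-KO Il23a-/- against the 5 labelled NEMOIEC-KO Il12a-/-, chosen by their labels alone. Both groups lack NEMO, the IKK subunit encoded by Ikbkg that NF-κB activation needs, in intestinal epithelial cells, so that deletion does not separate them. The Il23a-/- group also carries a null label for the gene of p19, and the Il12a-/- group one for the gene of p35. All mice were C57BL/6 and 6 weeks old, and each library is 1 mouse. A further 2 genotypes serve as reference: NEMOIEC-KO mice with both cytokine genes intact and Nemofl/fl mice, which carry the floxed gene without its deletion, with 5 libraries each. The remaining genotype, NEMOIEC-KO Il12b-/- (5 libraries), which carries a null label for the gene of p40, enters the shared fit and the counts over the other 20 libraries. The driver of the deletion and the design of the cytokine alleles are not given in the sources used here.

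IL-12 and IL-23 are heterodimers that share the p40 subunit, encoded by Il12b. IL-12 pairs p40 with p35 and drives T-bet-dependent type 1 lymphocytes, which make interferon-γ (IFN-γ) and carry granzymes. IL-23 pairs p40 with p19 and sustains RORγt-dependent lymphocytes that make IL-17 and IL-22, which in the gut act on the epithelium and on neutrophil recruitment. IFN-γ induces IRF1, the guanylate-binding proteins, the immunity-related GTPases, the MHC class I pathway and, through CIITA, MHC class II, also in colon epithelium.

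Expression is given as FPKM, in which fragment numbers are divided by transcript length and by library size. Across the 10 libraries 13529 to 14374 genes reached 1 FPKM, and mitochondrial genes held 2.84% to 8.52% of the summed FPKM. Absolute depth is unknown, and the relative depth read from the smallest steps of the values lay between 0.758 and 1.07, lowest in an Il23a-/- library. Epithelial markers averaged 8.27 to 8.56 on the log2(FPKM + 0.5) scale in the Il12a-/- libraries and 8.42 to 8.73 in the Il23a-/- libraries, and markers of the colon were present in all 10. By Xist and the Y-linked genes, 2 of 5 Il12a-/- and 4 of 5 Il23a-/- mice were female. The library code K002000079 covers all Il12a-/- libraries and Il23a-/- replicates 1 to 4, while replicate 5 carries another code. In the reference groups a further code, K002000081, marks every Nemofl/fl mouse. Within the NEMOIEC-KO group, replicates 3, 4 and 5 have K002000081, whereas replicates 1 and 2 have K002000079. None of the 10 libraries compared has K002000081.

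Some libraries stood apart from their group. Il12a-/- replicate 1 correlated better with the Il23a-/- libraries (mean r across genes 0.971) than with the other Il12a-/- libraries (0.962), and Il23a-/- replicate 2 better with the Il12a-/- libraries (0.974) than with its own group (0.969). Il23a-/- replicate 5, which carries the other library code, also did so, by a smaller margin (0.969 against 0.968). The mean level of 14 smooth muscle markers was 5.74 in Il12a-/- replicate 1 against 7.03 to 7.80 in the other Il12a-/- libraries, and 6.98 in Il23a-/- replicate 2 against 5.32 to 6.04 in the other Il23a-/- libraries. The 21 neutrophil markers averaged 1.29 in Il12a-/- replicate 1 and at most 0.336 in the other 4. The parts of this tissue makeup in the results were not tested, and fewer cells of a type cannot be told apart from less RNA per cell in bulk tissue. Counts that moved without Il12a-/- replicate 1 are therefore given both ways, and those of the leading gene groups also with the smooth muscle level in the model.

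**Figure D1:**
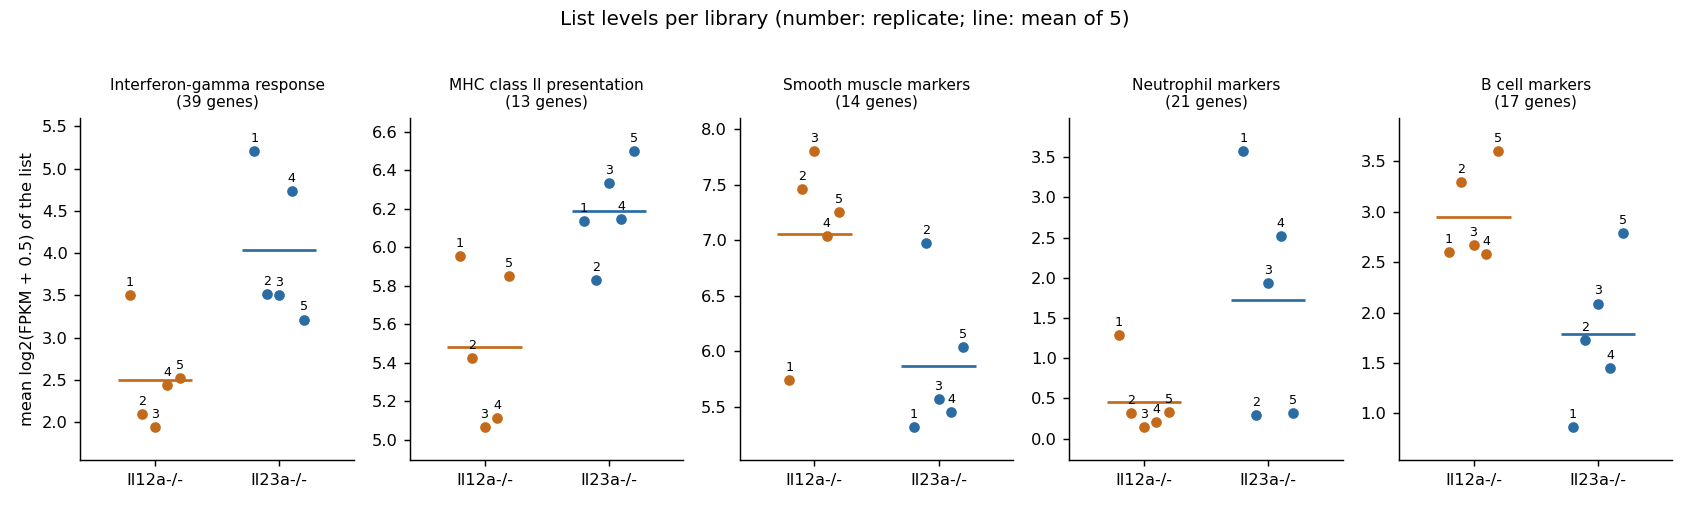
Mean log2(FPKM + 0.5) of 5 gene lists (vertical axes, each with its own range) in the 10 libraries, with the 2 genotypes on the horizontal axis. Numbers are replicates and lines are means of 5 libraries. Il12a-/- replicate 1 lies at 3.51 for the IFN-γ list against 1.94 to 2.53 in the other 4, and at 5.74 for smooth muscle against 7.03 to 7.80.

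The genes behind the labels were read first. Il12a (chromosome 3, GRCm38 chr3:68690644-68698547), encoding p35, was at 0.61, 0.816, 1.98, 0.937 and 1.65 FPKM in the Il12a-/- libraries and at 0.352, 0.182, 0.437, 0.395 and 0.392 FPKM in the Il23a-/- libraries. The groups did not overlap, and the RNA was higher where the label names the loss (log2 fold change, Il23a-/- minus Il12a-/-, -0.94, SE 0.23, limma adjusted p = 0.047). That call held in 6 of the 21 alternative analyses in which Il12a was tested. Whole-gene FPKM cannot show whether a deleted stretch is missing from that RNA, so this value checks neither label. Il23a (chr10:128296139-128298752), encoding p19, was at 0.182 ± 0.102 FPKM (SD, n = 5, as for every mean ± SD given here) in the p35 mutants and 0.214 ± 0.0427 in the p19 mutants, with a difference of 0.08 (95% interval -0.26 to 0.42, limma adjusted p = 0.83). Il12b was near 0 in both groups, at 0.0827 ± 0.0412 and 0.0909 ± 0.0288 FPKM. Ikbkg was at 3.81 ± 0.477 and 3.34 ± 0.383 FPKM, against 9.08 in Nemofl/fl colon, and did not differ past the threshold (adjusted p = 0.49). The groups are named by their labels throughout, since 3 of these 4 genes did not separate them and Il12a did so against its label.

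Of 19266 genes tested, 224 passed an adjusted p of 0.05 (1.16%). Of these, 147 were higher in Il23a-/- colon (0.763% of the genes tested), 79 of them by at least 2-fold, and 77 were lower (0.4%), 27 of them by at least 2-fold. The median log2 fold change over all genes was -0.03. Without Il12a-/- replicate 1, 2674 genes passed (13.9%), 732 higher (3.8%) and 1942 lower (10.1%), and all 224 were among them. Every library of 1 genotype lay above all of the other in 68 of the 147 higher and 47 of the 77 lower genes. Over all genes tested such separation was seen in 189 higher (0.981%) and 179 lower (0.929%). When the 10 libraries were fitted alone, without the spread of the other 3 genotypes, 31 genes passed, 17 higher and 14 lower.

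**Figure D2:**
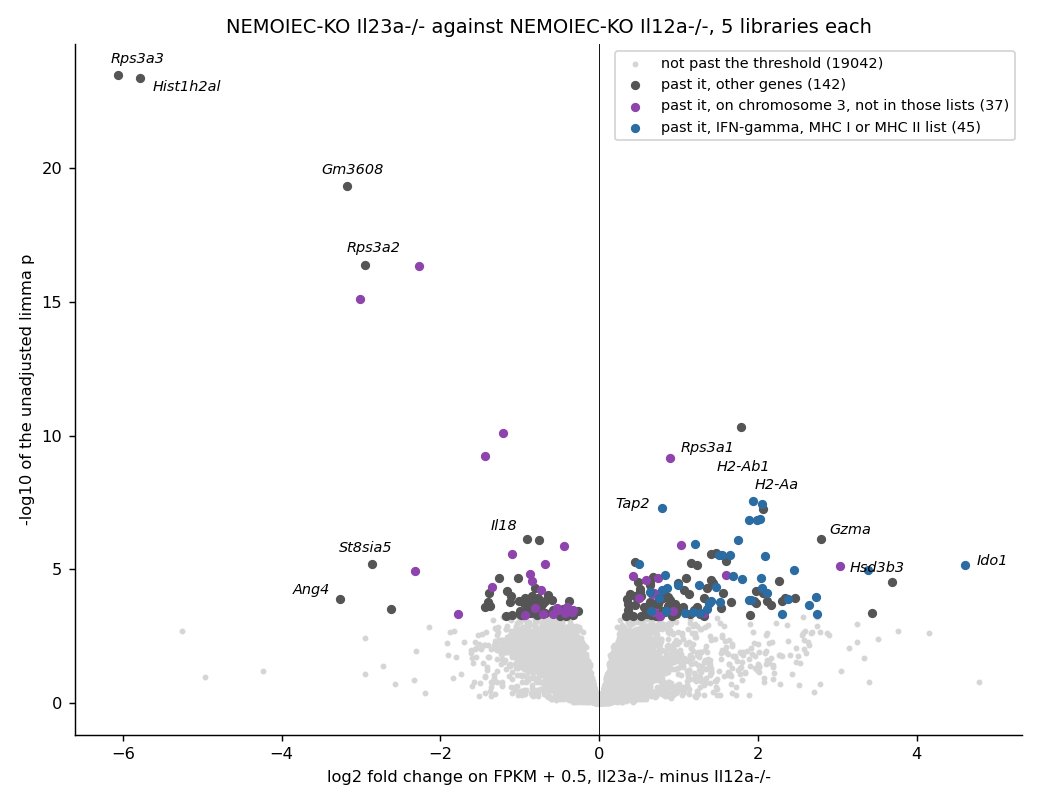
Log2 fold change on FPKM + 0.5, Il23a-/- minus Il12a-/- (horizontal), against -log10 of the unadjusted limma p (vertical) for the 19266 genes tested, 1 point per gene. Genes of the IFN-γ and MHC lists past the threshold lie on the right, and the strongest points lie on the left, led by Rps3a3 (-6.06) and Hist1h2al (-5.78), both with near-identical copies on chromosome 3.

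Genes of MHC class II antigen presentation separated the genotypes. Among genes past the threshold, those for MHC class II chains, the invariant chain Cd74 and the peptide-loading chaperones were higher in Il23a-/- than in Il12a-/- colon. They differed by 1.75 to 2.05 on the log2 scale, and stood in Il23a-/- colon near their level in NEMOIEC-KO mice with both cytokines. Of 13 MHC class II genes tested 7 were higher and none lower, with a list median of 1.52 against -0.03 over all genes. H2-Aa, the class II alpha chain, was at 707, 281, 255, 243 and 435 FPKM in the Il12a-/- libraries and at 1567, 943, 1713, 1469 and 1772 FPKM in the Il23a-/- libraries. The groups did not overlap, although Il12a-/- replicate 1 was the highest of its group and Il23a-/- replicate 2 the lowest of its own (log2 fold change 2.05, SE 0.25, limma adjusted p = 5.7e-05). For reference, Nemofl/fl colon was at 108 ± 28.96 and NEMOIEC-KO colon at 1625 ± 238 FPKM.

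Cd74, the invariant chain that escorts class II to endosomes, was at 1606, 651, 537, 536 and 886 FPKM against 3432, 2082, 3442, 3221 and 3255 FPKM (log2 fold change 1.98, SE 0.26, adjusted p = 0.00016). H2-Ab1, the beta chain, was at 285 ± 130 against 1028 ± 188 FPKM (1.93, adjusted p = 5.1e-05), again without overlap. H2-DMa and H2-DMb1, which load peptide onto class II, were higher by 1.88 and 2.03. H2-DMb1 matches H2-DMb2 at 95.4% identity over 60.3% of its transcript, so reads may be split between them. H2-Aa, H2-Ab1, H2-DMa and Cd74 passed the threshold in all 22 alternative analyses, with adjusted p of at most 0.043. Named after its values were seen, Ciita, the transactivator of these genes, was at 3.52 ± 2.30 against 10.4 ± 4.24 FPKM with overlapping groups (1.52, adjusted p = 0.025).

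The 6 members of the class II list that did not pass ran from -1.40 to 0.28. H2-Oa, whose product with that of H2-Ob restrains class II loading in B cells, was at 7.07 ± 2.21 FPKM in Il12a-/- and at 3.23 ± 1.12 in Il23a-/- libraries, on the opposite side to H2-Aa, with no overlap but an adjusted p of 0.15 (log2 fold change -1.03). It was chosen after its values were seen. Ctss and Ifi30, which process antigen in endosomes, differed by 0.28 and 0.01. With the smooth muscle level in the model 6 of the 13 passed and the list median was 0.87 in place of 1.52. The count was 5 with the 10 libraries fitted alone, 7 without Il12a-/- replicate 1, and 6 or 7 higher without any other 1 library. Without Il23a-/- replicate 5, 1 class II gene was also called lower.

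**Figure D3:**
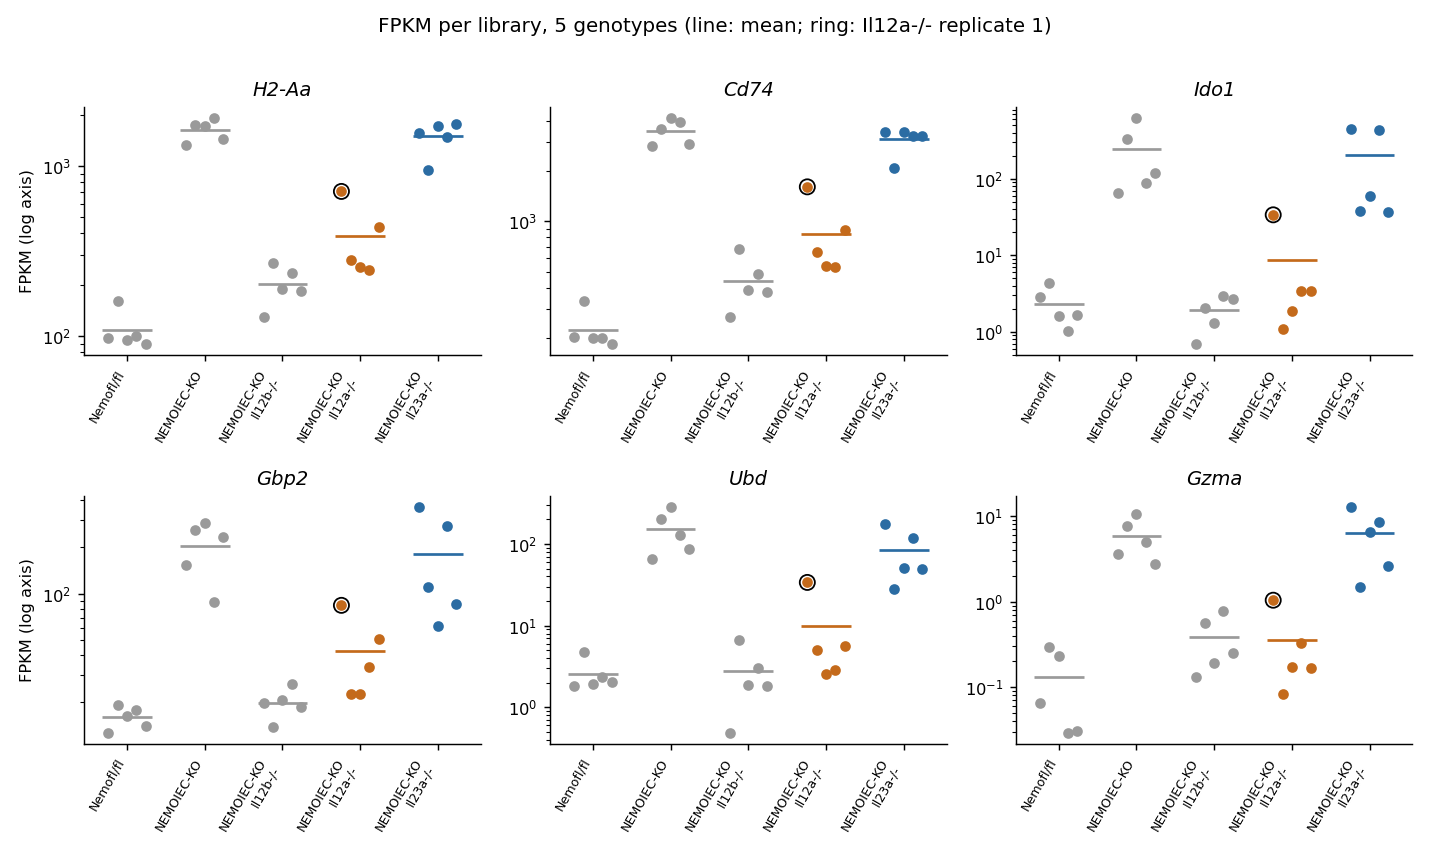
FPKM on log axes of H2-Aa, Cd74, Ido1, Gbp2, Ubd and Gzma in all 25 libraries, 1 point per mouse, with the genotype on the horizontal axis, the line at the mean and a ring around Il12a-/- replicate 1. In H2-Aa the Il23a-/- libraries lie between 943 and 1772 FPKM and the Il12a-/- libraries between 243 and 707.

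The promoters of genes from these groups are shown because the transcription factors named above read short motifs in them. The sequences are the 250 bases before the RefSeq transcript start (build GRCm38.p6), 5′ to 3′ on the gene's strand. Capitals mark the Y box CTGATTGG of class II promoters in H2-Aa (chr17:34287824-34288073, minus strand) and H2-Eb1 (chr17:34305617-34305866, plus strand). In Gbp2 (chr3:142620413-142620662, plus strand) they mark an interferon-stimulated response element (ISRE), searched as GAAA and GAAA separated by any 2 bases, which stands there in reverse. In Igtp (chr11:58199306-58199555, plus strand) they mark the IFN-γ activated site searched as TTCNNNGAA and, 2 bases on, the response element.
H2-Aa: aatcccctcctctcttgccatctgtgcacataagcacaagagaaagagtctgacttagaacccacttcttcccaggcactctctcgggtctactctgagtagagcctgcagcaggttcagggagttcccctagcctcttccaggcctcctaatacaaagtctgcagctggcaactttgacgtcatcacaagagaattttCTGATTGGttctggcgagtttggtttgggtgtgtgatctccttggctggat
H2-Eb1: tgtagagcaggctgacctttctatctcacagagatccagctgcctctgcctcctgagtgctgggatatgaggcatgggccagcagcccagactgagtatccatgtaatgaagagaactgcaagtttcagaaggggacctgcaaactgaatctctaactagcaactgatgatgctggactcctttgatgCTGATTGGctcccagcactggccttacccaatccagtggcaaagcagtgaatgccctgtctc
Gbp2: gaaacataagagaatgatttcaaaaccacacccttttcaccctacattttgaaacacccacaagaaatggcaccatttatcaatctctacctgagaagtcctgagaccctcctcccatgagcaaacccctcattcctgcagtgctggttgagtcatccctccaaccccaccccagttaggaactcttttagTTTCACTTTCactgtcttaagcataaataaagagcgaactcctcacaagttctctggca
Igtp: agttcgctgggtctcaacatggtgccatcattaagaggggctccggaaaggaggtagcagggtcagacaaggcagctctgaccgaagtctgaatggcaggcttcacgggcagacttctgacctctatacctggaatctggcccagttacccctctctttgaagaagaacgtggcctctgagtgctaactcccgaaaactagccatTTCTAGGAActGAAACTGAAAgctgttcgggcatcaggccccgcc
The Y box lies at -51 to -44 from the transcript start in H2-Aa and at -62 to -55 in H2-Eb1, and the response element at -59 to -50 in Gbp2 and at -34 to -25 in Igtp. Promoters matched 12716 of the genes tested, and each motif was searched on both strands, with overlaps between motifs allowed. The ISRE occurred in 27 of the 96 matched genes called higher (28.1%), in 2 of the 48 called lower (4.17%) and in 3.43% of the genes tested. TTCNNNGAA occurred in 16 of 96 (16.7%), 3 of 48 (6.25%) and 7.27%. The Y box was found in 4 of 10 matched class II genes (40%) and in 5.92% of the genes tested. It was not particular to class II: 6 of 17 matched MHC class I genes held it (35.3%). Among called genes it was in 11 of 96 higher (11.5%) and 3 of 48 lower (6.25%). Of 21 matched genes of the IFN-γ list, 12 held the ISRE (57.1%) and 9 held TTCNNNGAA (42.9%). These shares describe letters in the windows, not bound sites.

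Genes induced by IFN-γ were higher in Il23a-/- colon as a group. Of 39 genes tested 23 were higher and none lower, 38 of the 39 estimates were above 0, and the median log2 fold change was 1.41. In only 3 of the 39 did every Il23a-/- library lie above every Il12a-/- library, so most of the called genes overlapped. Over all genes tested such separation was seen in 0.981%. In NEMOIEC-KO against Nemofl/fl colon, whose libraries enter this comparison through the pooled spread alone, 38 of the 39 were higher. Ido1, which breaks down tryptophan, was at 33.8, 1.09, 1.87, 3.40 and 3.39 FPKM in Il12a-/- and at 453, 38.4, 59.7, 437 and 36.7 FPKM in Il23a-/- libraries (log2 fold change 4.61, SE 0.80, limma adjusted p = 0.0035). The groups did not overlap, though by a narrow margin: Il12a-/- replicate 1 was at 33.8 and Il23a-/- replicate 5 at 36.7 FPKM. Ubd, a ubiquitin-like protein, was at 9.98 ± 13.4 against 84.6 ± 61.7 FPKM (3.39, adjusted p = 0.0049).

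Gbp2, a guanylate-binding protein of cell-autonomous defence, was at 83.9, 22.5, 22.6, 33.4 and 50.6 FPKM against 362, 111, 61.9, 274 and 85.8 FPKM. Its groups overlapped, since Il12a-/- replicate 1 exceeded Il23a-/- replicate 3 (log2 fold change 1.92, SE 0.42, adjusted p = 0.024). Gbp8 was at 1.713 ± 1.15 against 9.22 ± 5.53 FPKM without overlap (2.09, adjusted p = 0.0019). Cxcl9, a chemokine that draws CXCR3-bearing T cells, was at 1.06 ± 1.08 against 14.3 ± 15.8 FPKM (2.75, adjusted p = 0.045). Il23a-/- replicates 1 and 4 were the highest libraries in Ido1, Ubd, Gbp2 and Cxcl9.

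The count of 23 rests on the model. It was 33 without Il12a-/- replicate 1, and between 5 and 9 without Il12a-/- replicate 2, 3, 4 or 5 or without Il23a-/- replicate 1 or 4. With sex as a covariate it was 9, and within library code K002000079 it was 12. It was 0 when the 10 libraries were fitted alone, with the median still 1.41, and 0 with the smooth muscle level in the model, with a median of 0.88. Il12a-/- replicate 1, with the least smooth muscle and the most neutrophil RNA of its group, also had the highest IFN-γ list level of that group. The part of that makeup in the result was not tested.

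The MHC class I pathway followed the same pattern with smaller differences. Of 21 genes tested 17 were higher and none lower, the median was 0.85, and all 21 passed without Il12a-/- replicate 1. The groups did not overlap in 4 of the 21, so most of the called genes overlapped. H2-Q7 and H2-Q6, non-classical class I genes, were higher by 2.46 and 2.06 on the log2 scale (adjusted p = 0.0049 and 0.013). Neither had a copy at 95% identity over 50% of its transcript, and splitting of reads within this gene family was not tested. With the smooth muscle level in the model 5 of the 21 passed, and with the 10 libraries fitted alone 1. The count was 10 without Il12a-/- replicate 2, and 11 without Il12a-/- replicate 3 or within library code K002000079.

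Antiviral genes that type I interferon also induces were higher in 9 of 29 cases and lower in none, with a median of 0.82. Oas3, which makes the activator of RNase L, was at 4.41 ± 3.10 against 12.1 ± 2.02 FPKM without overlap (1.56, adjusted p = 0.018). Bst2 (tetherin) was at 38.2 ± 9.68 against 80.7 ± 21.2 FPKM, also without overlap. Ifit2 was at 3.31 ± 2.63 against 11.6 ± 7.5 FPKM with overlap (1.66, adjusted p = 0.025). The count was 24 without Il12a-/- replicate 1, and 0 with the smooth muscle level in the model, with the 10 libraries fitted alone, or within library code K002000079. It was 0 to 2 without Il12a-/- replicate 2, 3 or 5 or Il23a-/- replicate 1 or 4.

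Granule genes of cytotoxic lymphocytes were higher, while IFN-γ RNA did not pass. Of 18 type 1 and cytotoxic genes tested 4 were higher and none lower, with a median of 0.54, and 8 were higher without Il12a-/- replicate 1. With the 10 libraries fitted alone, or with the smooth muscle level in the model, 1 was higher. Gzma (granzyme A) was at 1.04, 0.0839, 0.174, 0.326 and 0.167 FPKM in Il12a-/- and at 12.8, 1.48, 6.53, 8.62 and 2.64 FPKM in Il23a-/- libraries. The groups did not overlap (log2 fold change 2.79, SE 0.41, adjusted p = 0.00071). Gzmb (granzyme B) was at 0.321 ± 0.252 against 2.16 ± 1.3 FPKM, without overlap (1.6, adjusted p = 0.00298). The other members past the threshold, named after their values were seen, were Xcl1 (1.48), a chemokine for cross-presenting dendritic cells, and Nkg7 (1.19), a cytotoxic granule protein.

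Ifng was at 0.202, 0.0191, 0, 0 and 0.0189 FPKM in Il12a-/- and at 3.50, 0.172, 0.242, 1.62 and 0.119 FPKM in Il23a-/- libraries. It overlapped only through Il12a-/- replicate 1, but the spread within Il23a-/- colon was wide, and the difference of 1.16 (95% interval 0.09 to 2.22) had an adjusted p of 0.21. Markers of T cells as a whole showed 0 of 23 genes past the threshold, with a median of 0.25, and 2 higher without Il12a-/- replicate 1. Cd8a was at 0.483 ± 0.219 against 1.14 ± 0.436 FPKM (adjusted p = 0.12).

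With all libraries, no gene of the type 17 and IL-17 or IL-22 target lists passed the test. Of 11 type 17 lymphocyte genes tested none was higher or lower and the median was 0.06. Of 30 genes that IL-17 and IL-22 induce none passed either, with a median of 0.01. Without Il12a-/- replicate 1, 1 type 17 gene was lower, and 2 of the 30 targets were higher and 1 lower. In that setting 3.8% of all genes tested were called higher and 10.1% lower. With all libraries, 3856 of all genes tested had an unadjusted p under 0.05. Il17f, a type 17 cytokine, was at 0.544 ± 0.0719 FPKM in Il12a-/- and 0.271 ± 0.0967 in Il23a-/- libraries, lower in the p19 mutants without overlap (difference -0.44, 95% interval -0.75 to -0.13), with an adjusted p of 0.12. Il17a and Il22 lay under the filter on low values. Il22 was listed at 0.201, 0.189, 0, 0 and 0.0628 FPKM in Il12a-/- libraries and at 0 in 4 of 5 Il23a-/- libraries, with 0.0476 in the other one.

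Targets of IL-17 and IL-22 spread in both directions. Saa3, an acute phase protein, was at 24.1, 2.00, 1.36, 2.28 and 5.76 FPKM against 287, 16.6, 124, 166 and 8.51 FPKM, higher in most Il23a-/- mice but overlapping (3.76, 95% interval 1.53 to 5.99, adjusted p = 0.085). Il22ra2, the soluble IL-22 binding protein, was at 1.52 ± 1.101 against 0.531 ± 0.290 FPKM (-0.87, 95% interval -1.48 to -0.26, adjusted p = 0.12). Nfkbiz, an atypical IκB protein that IL-17 induces, was at 18.2 ± 5.92 against 13.5 ± 1.03 FPKM (-0.38, 95% interval -0.68 to -0.08, adjusted p = 0.16). The intervals of Saa3 and Il22ra2 reach past a 2-fold difference, and a p above the threshold does not show that the genotypes were alike.

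**Figure D4:**
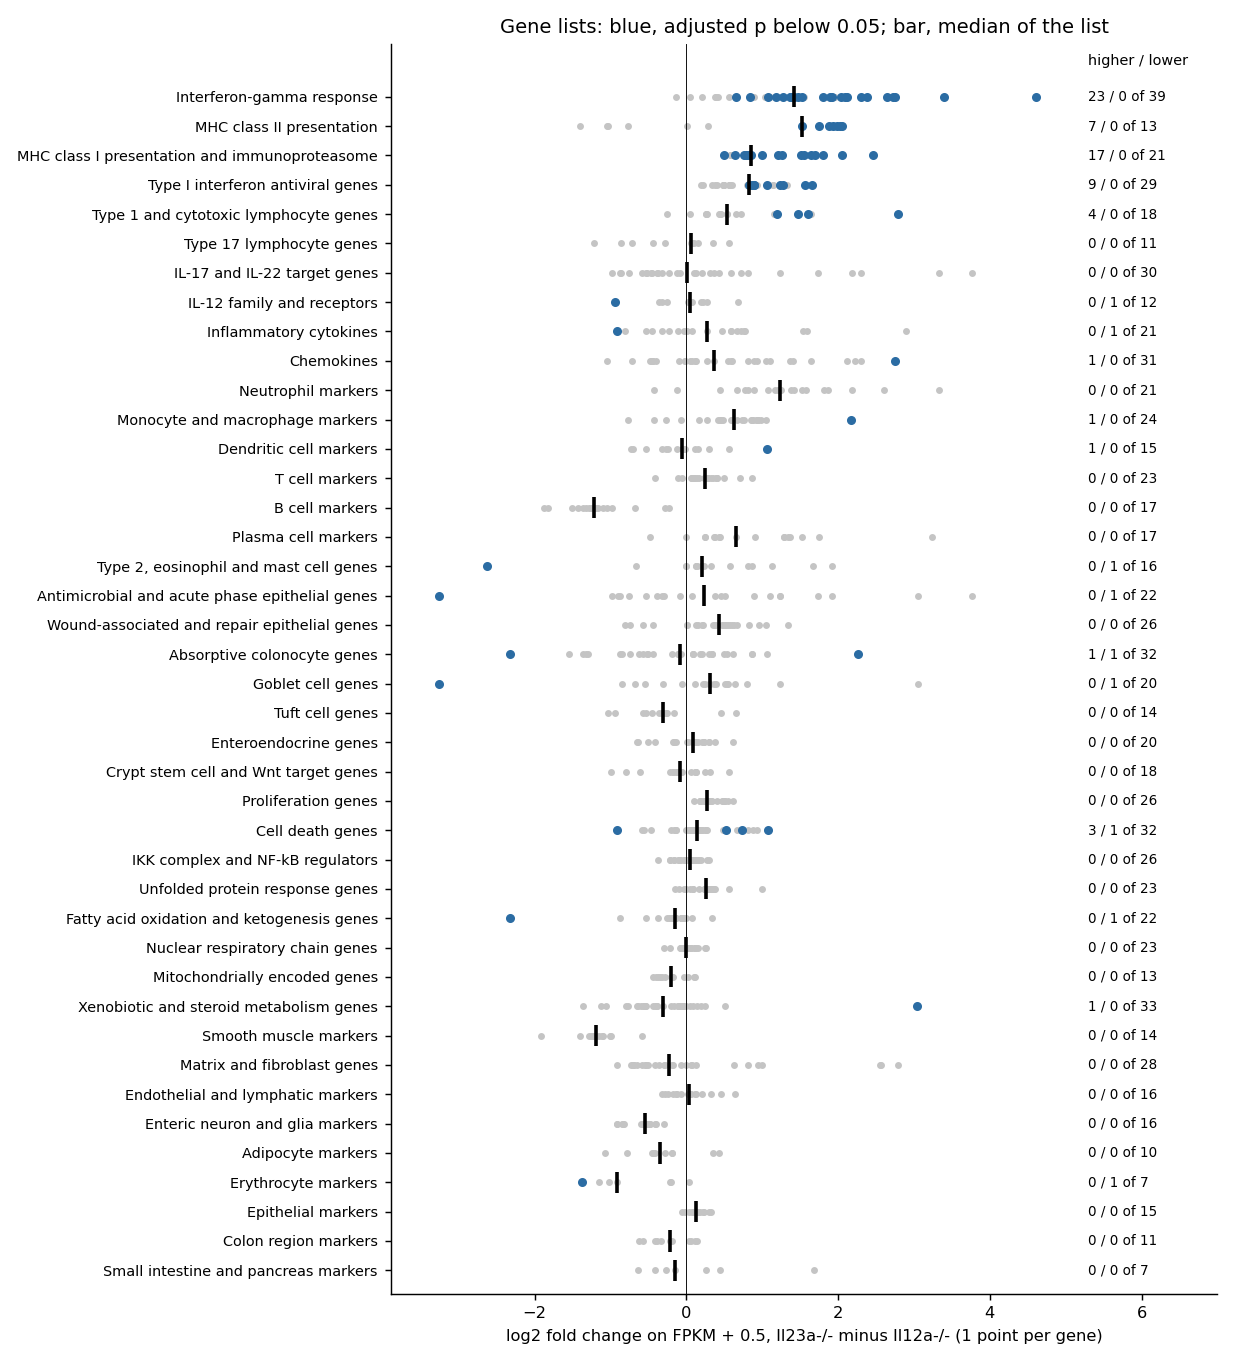
Log2 fold changes (horizontal) of the members of 41 gene lists (rows), 1 point per gene, blue where the adjusted p was below 0.05, with a bar at the list median and the counts higher and lower at the right. The IFN-γ list (23 of 39), MHC class I (17 of 21) and MHC class II (7 of 13) hold most of the blue points, while the type 17 list (0 of 11) and the IL-17 and IL-22 targets (0 of 30) hold none.

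Leukocyte markers other than these showed few calls. None of 21 neutrophil markers passed, although their median was 1.24, and 1 was higher without Il12a-/- replicate 1. Without that library 3.8% of all genes tested were called higher and 10.1% lower. Csf3r, the receptor for G-CSF, was at 0.723 ± 0.747 FPKM in Il12a-/- and 3.59 ± 2.99 in Il23a-/- libraries (adjusted p = 0.11). Neutrophil levels were uneven among the Il23a-/- mice: the list mean was 3.57, 1.93 and 2.52 in replicates 1, 3 and 4, and 0.293 and 0.319 in replicates 2 and 5, as low as in Il12a-/- replicates 2 to 5. Of 24 monocyte and macrophage markers 7 were higher and 1 lower without Il12a-/- replicate 1, and with all libraries 1 was higher, Fcgr4, an activating Fc receptor, at 1.85 ± 1.09 against 12.5 ± 10.4 FPKM (2.17, adjusted p = 0.028).

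B cell markers pointed the other way. All 17 estimates were below 0 with a median of -1.23, none passed in the full set, and 5 were lower without Il12a-/- replicate 1. Ighd, the IgD heavy chain of naive B cells, was at 24.6 ± 10.9 against 7.08 ± 5.09 FPKM (adjusted p = 0.087), and Fcer2a (CD23) at 7.16 ± 3.30 against 1.87 ± 1.40 FPKM (adjusted p = 0.085). Fcrl1, an Fc receptor-like protein of B cells that is not in the list and lies on chromosome 3, was at 5.88 ± 2.53 against 1.42 ± 0.928 FPKM without overlap (-1.78, adjusted p = 0.045). Of 17 plasma cell genes none passed, with a median of 0.65, and 8 were higher without Il12a-/- replicate 1. Beside these, 5 immunoglobulin or T cell receptor segments were among the genes called higher and none among those lower. Over all genes tested 0.763% were called higher and 0.4% lower. The number of segments tested is not given here, so their share cannot be set beside these.

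The 77 genes lower in Il23a-/- colon did not gather in a list: with all libraries no list held more than 1 of them. Il18, a cytokine made by the epithelium and matured by caspase-1, was at 174, 196, 148, 118 and 160 FPKM in Il12a-/- and at 68.3, 79.4, 101, 76.0 and 94.0 FPKM in Il23a-/- libraries (log2 fold change -0.91, SE 0.14, adjusted p = 0.00071). The groups did not overlap, and Il18 passed in all 22 alternative analyses, with adjusted p of at most 0.049. NEMOIEC-KO colon lay between them at 116 ± 20.2 FPKM, and Nemofl/fl colon at 155 ± 18.4.

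Retnla, a resistin-like protein of type 2 immunity, was at 10.9 ± 10.4 against 0.949 ± 0.605 FPKM without overlap (-2.62, adjusted p = 0.036). Ang4, an antimicrobial ribonuclease of secretory epithelial cells, was at 19.9, 18.1, 1.56, 24.3 and 81.7 FPKM against 0.802, 2.64, 0.194, 0.167 and 9.68 FPKM (-3.27, adjusted p = 0.023). It overlapped between the groups, and the reference means were 0.212 (Nemofl/fl) and 2.31 FPKM (NEMOIEC-KO), so the Il12a-/- mean of 29.1 stood above both. St8sia5, a sialyltransferase, was at 15.4 ± 4.30 against 1.92 ± 1.33 FPKM (-2.87, adjusted p = 0.0034), and Ceacam10 at 28.8 ± 9.85 against 10.8 ± 4.68 (-1.44, adjusted p = 0.033). Fxyd2, a regulator of the sodium pump, and the globin gene Hba-a2 were lower by 1.16 and 1.38 on the log2 scale. Hba-a2 is 99.8% identical to Hba-a1 over 97.1% of its transcript, so its reads may be split.

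Among cell death genes 3 of 32 were higher and 1, Il18, was lower, and without Il12a-/- replicate 1, 9 were higher and 4 lower. Over all genes tested, 0.763% were higher and 0.4% lower with all libraries, and 3.8% and 10.1% without that library. The 4 lower genes are thus near the share over all genes. Zbp1, a nucleic acid sensor upstream of necroptosis that IFN-γ also induces, was at 73.2 ± 34.97 against 148 ± 39.9 FPKM (1.08, adjusted p = 0.043). Further genes among the largest called higher were Btnl2, a butyrophilin-like regulator of T cells, at 1.25 ± 1.29 against 5.81 ± 1.23 FPKM (2.06, adjusted p = 7.9e-05), Mt4, a metallothionein, at 0.972 ± 0.380 against 6.196 ± 4.18 FPKM, and Apol10a, at 2.88 ± 2.02 against 17.1 ± 10.8 FPKM (2.27, adjusted p = 0.0089).

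Muscle and nerve markers had estimates below 0 that did not pass with all libraries. None of 14 smooth muscle markers passed with all libraries, their median was -1.19, and all 14 were lower in Il23a-/- colon without Il12a-/- replicate 1. Acta2, smooth muscle actin, was at 551, 2107, 2462, 1282 and 1762 FPKM against 463, 1114, 474, 489 and 690 FPKM (-1.26, adjusted p = 0.11). The groups overlapped through Il12a-/- replicate 1 alone, since the other 4 lay above all Il23a-/- libraries. Of 16 enteric neuron and glia markers 12 were lower without that library and 0 with it, and Sox10 was at 3.88 ± 1.41 against 1.88 ± 0.722 FPKM. With the smooth muscle level as a term in the model 34 genes passed in all, 19 higher and 15 lower, and with that term and without Il12a-/- replicate 1, 36.

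The difference between the double mutants was set against the difference between NEMOIEC-KO and Nemofl/fl libraries, called NEMO loss here. Neither group enters the means compared above, but both contribute to the spread of the shared fit, and with the 10 libraries fitted alone 16 genes were called in both in place of 162. Of the 147 genes higher in Il23a-/- colon, 129 were also higher in NEMOIEC-KO colon (87.8% of the 147 and 5.63% of the 2291 genes higher there), against 11.9% of all genes tested. Of the 77 lower genes 33 were also lower (42.9%, and 0.844% of 3911), against 20.3% of all genes. Without Il12a-/- replicate 1 the shared genes were 580 of 732 higher (79.2%, and 24.4% of 2381) and 1306 of 1942 lower (67.2%, and 30.5% of 4285). On the log2 scale the Il23a-/- mean was nearer to NEMOIEC-KO than the Il12a-/- mean was for 137 of the 147 higher genes (93.2%) and 69 of the 77 lower genes (89.6%), compared with 66.0% of all genes tested. The Il12a-/- mean was nearer to Nemofl/fl than the Il23a-/- mean was for 137 of the higher genes (93.2%) but 49 of the lower ones (63.6%), compared with 70.7% of all genes tested. The whole profile of fold changes correlated across genes at r = 0.63 (0.70 without Il12a-/- replicate 1), and genes are not independent replicates. Library code differed in part between NEMOIEC-KO and Nemofl/fl colon. Between Nemofl/fl colon and both double mutants it differed in every library, so code and genotype cannot be told apart there. The part of library code in the shared genes, the nearer means and this correlation was not tested.

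Chromosome 3, which carries Il12a, held the highest share of called genes with all libraries. Of its 1023 tested genes 40 passed (3.91%), 17 higher and 23 lower, and chromosome 17, which carries the MHC, came next with 27 (2.99%). Without Il12a-/- replicate 1, chromosome 3 held 162 (15.8%) and was not the highest: chromosome 18 was at 18.6% and chromosome 15 at 17.2%. Within 10 Mb of Il12a 2 of 65 genes passed (3.08%, against 1.16% of all genes), Il12a itself and Gm42568, the latter named after its values were seen. Without Il12a-/- replicate 1 that window was at 13.85%, against 13.9% of all genes. Between 10 and 40 Mb on the distal side, a window chosen after the data were seen, 30 of 464 passed (6.47%), and 98 without Il12a-/- replicate 1 (21.1%). Within 10 Mb of Il23a on chromosome 10, 5 of 130 passed (3.85%), and 23 without that library (17.7%). Among them was Apon (chr10:128254096-128255896), an apolipoprotein gene, at 0.0577 to 0.108 FPKM in the Il12a-/- libraries and 0.993 to 2.97 FPKM in the Il23a-/- libraries (1.79, SE 0.15, adjusted p = 1.4e-07). Rnf41, an E3 ubiquitin ligase gene of the same region, differed by -0.75 (adjusted p = 0.00071), and Stat2, Gls2 and Atp23 by 0.87, 0.76 and 0.60.

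**Figure D5:**
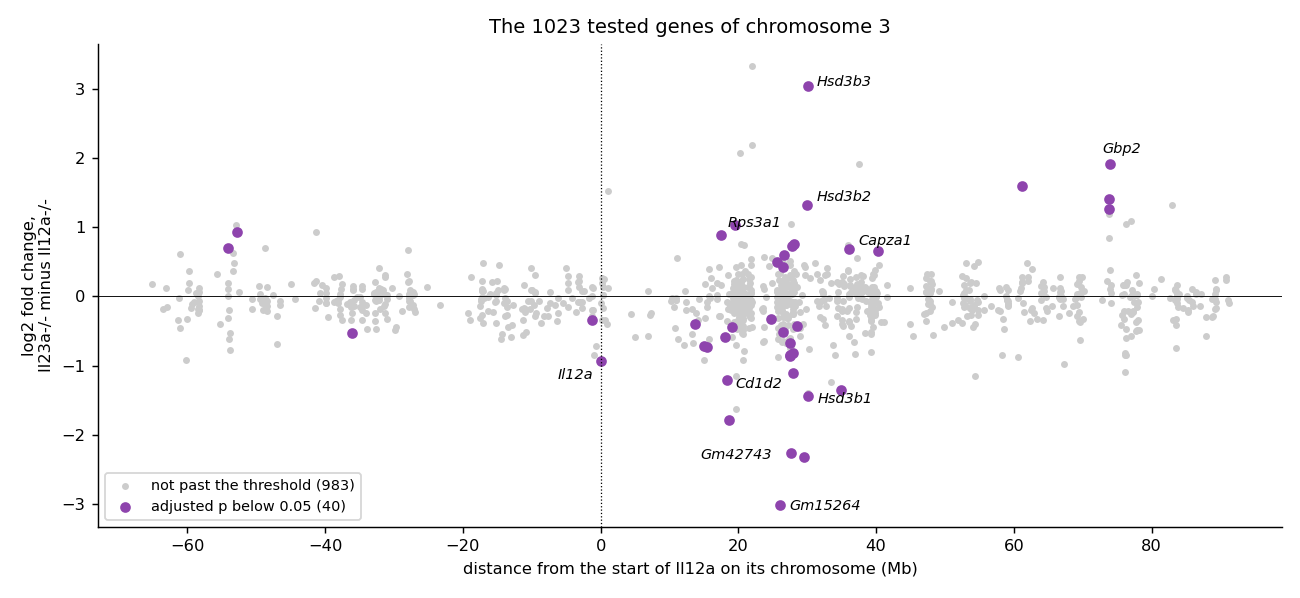
Log2 fold change, Il23a-/- minus Il12a-/- (vertical), of the 1023 tested genes of chromosome 3 against distance from the start of Il12a in Mb (horizontal), with the 40 genes past the threshold in purple. Called genes of both signs gather between 10 and 40 Mb to the right of Il12a, where 30 of 464 passed, and include Hsd3b3 (3.04) and Hsd3b1 (-1.44).

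A set of genes marked the Il12a-/- libraries apart from every other library, replicate 1 included. On chromosome 3, 10 of the 40 called genes (25.0%) had all 5 Il12a-/- libraries above or below the other 20, compared with 4 of the 184 called genes elsewhere (2.17%). Over all genes tested it was 12 of 1023 on chromosome 3 (1.17%) and 5 of 18243 elsewhere (0.0274%). These counts include genes that passed the filter on low values only through the group in which they were high. Hist1h2al and Cd1d2 were at most at 0.123 and 0.124 FPKM in the other 20 libraries, under the 0.2 FPKM required. Their standing apart was thus fixed by the filter. Hsd3b1 and Apon also passed the filter only through the group in which they were high. On those other chromosomes the 4 were Rps3a3, Rps3a2, Hist1h2al and Gm3608. The Il23a-/- libraries stood apart from the other 20 in 2 called genes, Apon and Rnf41, both within 10 Mb of Il23a. The cause of these patterns was not tested.

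Several genes of that set have near-identical copies, so their reads may be split between copies, which was not tested. Rps3a3 (chr13:108670603-108671397), annotated as a processed pseudogene of a small ribosomal subunit protein, was at 444, 595, 570, 493 and 468 FPKM in the Il12a-/- libraries and at 7.52, 6.69, 8.70, 7.12 and 6.05 FPKM in the Il23a-/- libraries (-6.06, SE 0.13, adjusted p = 4.4e-20). Its transcript is 98.9% identical to Rps3a1 on chromosome 3, 17.4 Mb from Il12a. Rps3a1 was at 591 ± 44.0 FPKM in Il12a-/- and 1098 ± 78.0 in Il23a-/- libraries (0.89, adjusted p = 1.3e-06), and between 843 and 1396 FPKM in the other 20 libraries. Rps3a2 on chromosome 14, 99.5% identical to Rps3a1, was at 77.4 ± 5.90 against 9.64 ± 1.27 FPKM. Summed over the 3 genes, the FPKM were 1183 ± 108 in Il12a-/- and 1115 ± 79.8 in Il23a-/- libraries, so the sum differed by less than the spread.

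Hist1h2al on chromosome 13, annotated as a processed pseudogene, is 99.4% identical to Hist2h2aa1 and Hist2h2aa2, histone H2A genes of chromosome 3. It was at 21.0, 32.8, 36.5, 29.5 and 28.2 FPKM in Il12a-/- libraries and listed at 0 to 0.111 FPKM in Il23a-/- libraries (-5.78, adjusted p = 4.4e-20). Hist2h2aa1 was listed at 0 in every Il12a-/- library and at 0 to 0.143 FPKM in the other 20. Hist2h2aa2 was listed at 0 in every library. The following were named after their values were seen. Gm3608 on chromosome 1 was at 6.90 ± 1.02 against 0.314 ± 0.0749 FPKM, and its 99.5% identical copy Capza1 on chromosome 3, an actin capping protein gene, at 16.7 ± 5.72 against 26.2 ± 4.35 FPKM. Gm15264, within chromosome 3 and 98.6% identical to part of Tuft1, was at 4.45 ± 0.750 against 0.127 ± 0.176 FPKM, while Tuft1 was at 20.2 ± 1.42 against 21.4 ± 2.33 FPKM. Of the 10 genes lower by a log2 fold change of at least 2, 5 had a copy on chromosome 3 (50%), compared with 1.3% of all genes tested.

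Steroid dehydrogenase genes of chromosome 3 went in both directions. Hsd3b3, which has 3β-hydroxysteroid dehydrogenase activity, was at 0.127, 1.58, 2.23, 1.65 and 2.01 FPKM in Il12a-/- and at 4.26, 16.4, 37.4, 6.42 and 33.3 FPKM in Il23a-/- libraries, without overlap (3.04, SE 0.53, adjusted p = 0.0036). Its paralog Hsd3b1 was at 1.06 ± 0.532 against 0.0556 ± 0.0335 FPKM (-1.44, adjusted p = 1.3e-06). Hsd3b1 was between 0 and 0.226 FPKM in the other 20 libraries, so its level set the Il12a-/- libraries apart. It passed the filter on low values only through the Il12a-/- libraries. Neither had a copy at 95% identity over 50% of its transcript, and splitting of reads between these paralogs was not tested. Ankrd35, also on this chromosome, was at 3.59 ± 1.09 against 1.37 ± 0.260 FPKM (-1.102, adjusted p = 0.0018). With chromosome 3 left out of the genes tested, 154 genes passed, 112 higher and 42 lower.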

How the data were processed

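RNA of distal colon was poly(A)-selected, made into stranded libraries and sequenced in pairs, per the labels' protocols. The deposited values are FPKM made by the authors. TopHat2 2.0.10, Cufflinks 2.1.1, DESeq2 1.10.1 and GRCm38 were named, per the submitters' processing notes; the annotation release is not given in the sources used here. Of 49452 deposited identifiers, 49195 matched GENCODE symbols and GRCm38 positions. Read counts were not used here, so depth and counting error are unknown.

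A gene was tested if 5 or more libraries reached 0.2 FPKM, which left 19266, and values were taken as log2(FPKM + 0.5). Fold changes are on that scale and understate changes of low genes. All 25 libraries entered 1 limma 3.58.1 fit (R 4.3.3; 1 mean per genotype, trended empirical Bayes, 20 residual degrees of freedom), with Benjamini-Hochberg adjustment over all genes and a threshold of 0.05. The script was tested on simulated data. Groups do not overlap when every library of 1 lies above the other. Near-identical copies were sought with BLAST 2.17.0 (at least 95% identity over 50% of a transcript).

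The comparison, the 43 gene lists (888 of 892 members matched) and the tests were chosen with earlier results of these data known. Named genes are Ikbkg, Il12a, Il12b, Il23a, Ifng, Il17a, Il22, Ido1, Gbp2; the 12 largest called differences in each direction without overlap and with 1 FPKM in 1 group, leaving out predicted, receptor segment and sex-linked genes; per list the 2 largest called in each direction, or the 2 smallest p; called genes within 10 Mb of Il12a or Il23a; and sex-linked genes as a check. Alternatives were other pseudocounts, filters, scalings, library sets, covariates, a replicate block and each replicate left out. Some named genes are not reported here.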

Additional observations from a re-analysis of the deposited data

Results flagged for a closer look

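Within each group of 5 libraries, the highest or lowest value was set against the gap to its nearest neighbour (Dixon's test, 0.71 of the range for 5 values). Of 202 groups tested 19 passed, and 11 of the 19 concern Il12a-/- replicate 1. Chance passes about 5 in 100 for independent, normally distributed values. FPKM of related genes need not be either, so the count of 19 cannot be judged against that rate.

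That library was the highest of its group for Ifng (0.202 FPKM, next 0.0191), Il17a (0.167, next 0.0256), Ubd (33.8, next 5.60), Btnl2 (3.54, next 0.913), Gzmb (0.770, next 0.246) and Mmp7, matrilysin (1.73, next 0.197). Its mean level of the neutrophil markers was 1.29 on the log2 scale, with the next at 0.336. It was the lowest for Hsd3b3 (0.127 FPKM, next 1.58), Ccn2, a connective tissue growth factor (13.7, next 21.6), Nkd1, a Wnt target (6.16, next 14.9) and Col6a1, a collagen VI chain (42.3, next 85.3).

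Il23a-/- replicate 2 was the lowest of its group for Cd74 (2082 FPKM, next 3221), H2-Ab1 (708, next 1030) and Cd8a (0.385, next 1.16). It was the highest for the Y-linked Uty (2.00, next 0.0389) and Eif2s3y (27.5, next 0.107), being the 1 male of its group by RNA. Il12a-/- replicate 3 was the highest for Il23a (0.361, next 0.165) and Hsd3b1 (2.00, next 0.996). For Il22, Il23a-/- replicate 4 was at 0.0476 FPKM and the other 4 were listed at 0. With 4 values at 0 the gap is the whole range, so any value above 0 would have passed.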

How the results depend on the processing

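The count of 224 genes was within 1.5 times under other pseudocounts, a filter at 1 FPKM, other scalings, without the sex chromosomes and with chromosome 3 left out. It was 132 without a filter, 31 with the 10 libraries alone, 103 with library code K002000079 alone, 129 with sex and 34 with smooth muscle as a covariate. Added after the data were seen, leaving out Il12a-/- replicate 1 gave 1985 with sex and 36 with smooth muscle. Leaving out 1 library gave 73 (Il12a-/- replicate 2) to 2674 (Il12a-/- replicate 1). It also moved the count past 1.5 times for Il12a-/- replicates 3, 4 and 5 (78, 123, 81) and Il23a-/- replicates 1, 2, 4 and 5 (85, 567, 81, 441).

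The 162 genes shared with NEMO loss became 93 without a filter and with sex, 16 with the 10 libraries alone and 17 with smooth muscle, and 47 to 1886 with 1 library left out. The 7 called genes near Il12a and Il23a became 4 without a filter, at 1 FPKM and with sex, 2 with the 1 code or smooth muscle, 1 with the 10 libraries alone, and 2 to 32 with 1 library left out.

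The Il12a difference lost its call at a pseudocount of 0.1 (-1.44), without a filter (-0.94), under quantile normalization (-0.84), with the 10 libraries alone (-0.94), 1 code (-0.96) or smooth muscle (-1.09). With 1 library left out it ran from -1.07 to -0.78, and the call was kept without Il12a-/- replicate 1 or Il23a-/- replicate 5 and lost without any of the others. In all, it was called in 6 of 21 alternatives. Under the filter at 1 FPKM it was not tested. The causes were not tested.

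Same-numbered libraries did not pair: their deviations correlated between -0.22 and 0.28. With the replicate number as a block 192 genes passed, 138 were shared with NEMO loss, 4 lay near the targeted genes, and the Il12a difference of -0.94 lost its call.

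Of the 40 named genes past the threshold, all 40 kept their sign in every alternative except the filter at 1 FPKM, where 37 were tested and kept it. As few as 11 were still called with the 10 libraries alone and 15 with smooth muscle. Depth is unknown, so genes near 0 FPKM carry no counting interval.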
